A study of Mus musculus with 30 samples.

Results

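Bach2, Irf4, Irf8, Prdm1, Xbp1, Bcl6, Id2 and Id3 are 8 genes whose products decide whether an activated B cell enters a germinal centre or becomes an antibody-secreting plasma cell. They were chosen by name for these known roles, and all 8 were found among the 22781 genes of the aged and the 26266 genes of the young expression table. Their RNA was followed in 18 RNA-seq libraries of mouse splenic B cells, in a study of a conditional knock-in of the Ikzf3 missense mutation L161R with expression limited to B cells. The gene encodes Aiolos, an Ikaros family protein that binds DNA through zinc fingers. Young mice, at 2 to 3 months, gave 3 libraries homozygous for the mutant allele (Ikzf3 fl/fl) and 3 wild-type libraries, on a C57BL/6 background. Aged mice, at 15 to 18 months, gave 5 libraries of CLL cells (cells of a disease like human chronic lymphocytic leukaemia, sorted as B220+CD5+), 4 of the remaining B cells of mutant mice (non-CLL) and 3 from wild-type animals. CLL libraries 1, 2, 4 and 5 and non-CLL libraries 2, 4 and 5 came from heterozygous mice (Ikzf3 fl/+), and CLL and non-CLL library 6 from a homozygous mouse. No treatment is given for any group. The sources used here give neither the promoter that drives Cre nor whether the wild-type mice carry Cre. B cells were isolated with magnetic beads, and the aged preparations were 85% pure or better, so cells of other types were not fully removed. The labels do not say that the young libraries come from separate animals, so the p-values of the young comparison measure only the spread between these libraries. Young wild-type library 3 differed from young wild-type libraries 1 and 2 in its sex-linked transcripts, so these libraries do not all come from 1 animal. Among the other young libraries the spread may be technical.

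Most of the 8 proteins act in pairs that oppose each other. IRF4 and IRF8 are related interferon regulatory factors: high IRF4 drives plasma cell differentiation, while IRF8 favours the germinal centre state and is also required by dendritic cells. BACH2 and BCL6 repress Prdm1, whose product BLIMP1 shuts down the B cell programme, and XBP1 then expands the secretory apparatus. ID2 and ID3 hold E proteins (the products of Tcf3, Tcf4 and Tcf12) away from DNA and so limit their output.

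Ikaros family proteins bind DNA at a core GGGAA. The promoter windows of the 4 genes on which the results below turn are printed here from RefSeq (GRCm38.p6, 300 bases around an annotated start, written 5′ to 3′ along the gene), to show how they differ in that core, which is in capitals on either strand (GGGAA or TTCCC).
Irf4, chr13:30748983-30749282, plus strand: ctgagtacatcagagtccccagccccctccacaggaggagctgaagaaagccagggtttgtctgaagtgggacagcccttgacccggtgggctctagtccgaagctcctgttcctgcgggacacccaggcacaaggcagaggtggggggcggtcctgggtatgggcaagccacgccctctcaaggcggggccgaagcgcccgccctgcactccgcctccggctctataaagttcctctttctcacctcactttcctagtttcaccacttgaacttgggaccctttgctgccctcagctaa
Bach2, chr4:32417185-32417484, plus strand: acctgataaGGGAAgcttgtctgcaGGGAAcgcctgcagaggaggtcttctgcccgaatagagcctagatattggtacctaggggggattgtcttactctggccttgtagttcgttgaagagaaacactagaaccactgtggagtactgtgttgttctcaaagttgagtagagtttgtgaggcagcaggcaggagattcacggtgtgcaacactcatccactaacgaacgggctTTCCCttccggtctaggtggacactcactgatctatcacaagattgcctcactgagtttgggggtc
Irf8, chr8:120736108-120736407, plus strand: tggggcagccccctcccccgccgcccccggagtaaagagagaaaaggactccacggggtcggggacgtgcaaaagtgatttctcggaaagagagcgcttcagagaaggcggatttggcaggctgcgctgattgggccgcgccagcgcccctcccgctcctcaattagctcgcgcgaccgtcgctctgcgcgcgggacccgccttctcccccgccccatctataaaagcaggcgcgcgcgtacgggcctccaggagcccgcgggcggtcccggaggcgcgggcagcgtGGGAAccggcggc
Prdm1, chr10:44458699-44458998, minus strand: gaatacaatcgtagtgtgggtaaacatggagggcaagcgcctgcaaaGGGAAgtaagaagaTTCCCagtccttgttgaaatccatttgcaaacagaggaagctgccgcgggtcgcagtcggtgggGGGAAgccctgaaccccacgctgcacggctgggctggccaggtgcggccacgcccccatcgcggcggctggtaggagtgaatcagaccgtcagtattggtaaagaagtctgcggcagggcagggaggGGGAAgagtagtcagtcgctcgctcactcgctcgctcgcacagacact
The window held 0 copies of the core in Irf4, 3 in Bach2, 1 in Irf8 (2 at its other annotated start) and 4 in Prdm1. The windows of Bach2 and Prdm1 lie inside the annotated genes (Bach2, chromosome 4, 32238413 to 32586109, and Prdm1, chromosome 10, 44437174 to 44528558), at the start of a shorter transcript. The 8 genes have 10 windows in the RefSeq table, since Irf8 and Bcl6 have a second start, and 7 of the 10 held GGGAA on either strand, against 62.7% of all 32851 mouse windows. The interferon response element (a pair of GAAA repeats with a spacer of NN) was in 0 of 10 (3.44% of all windows), the AP-1 motif TGANTCA in 1 of 10, that of Prdm1 (7.81% of all), and the E-box CANNTG, read by E proteins, in 6 of 10 (72.3% of all), each searched on both strands. These matches describe letters in short windows, and binding was not analysed here.

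Values are TPM, a share of each library's transcripts after correction for gene length, so the depth behind each is unknown. The background was read from olfactory receptor genes, which B cells do not use. Their median was 0 in all 6 young libraries and at most 0.745 TPM in aged wild-type libraries, but 1.08 to 9.66 TPM in CLL libraries (highest in library 6) and 7.16 to 9.24 TPM in non-CLL libraries. Cd5, the sort marker, was at 16.3 to 36.1 TPM in CLL, 5.54 to 11.2 TPM in non-CLL and 0.377 to 1.16 TPM in aged wild-type libraries, and the summed level of 8 B cell markers was at 5580 TPM or more in every library. Non-CLL libraries also held RNA of plasmacytoid dendritic cells (8 markers summing to 314 to 1403 TPM, against 38.7 to 107 TPM in CLL). Aged wild-type library 2 stood apart from the other wild-type libraries, with a sum of 301 TPM for these markers (9.01 and 17.7 TPM in libraries 1 and 3) and 614 TPM for T cell markers (7.90 and 15.4 TPM). In the young set, neutrophil and macrophage markers summed to 150.5 to 394 TPM in homozygous and 1376 to 5209 TPM in wild-type libraries. Young wild-type libraries 1 and 2 carried the female transcript Xist (80.9 and 63.1 TPM), whereas the Y-linked Ddx3y was at 54.3 TPM in wild-type library 3 and at 107 to 148 TPM in the homozygous libraries. Aged wild-type library 2 held both, with Xist at 38.1 and Ddx3y at 17.4 TPM. Ddx3y was at most 0.135 TPM in the other aged libraries. Xist was at 38.1 TPM or more in all aged libraries except CLL library 4. There it was far lower than in non-CLL library 4 (61.0 TPM). The cause of these differences was not tested.

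Differences were tested with limma on log2(TPM + 1), each pair of groups on its own, and are called at an adjusted p under 0.05 over all genes tested. The young groups compare homozygous with wild-type cells in the absence of labelled disease, and the part of the sex transcripts and of the neutrophil and macrophage markers, which differ between these groups, was not tested. Of the 8 genes 4 were higher in homozygous cells (Irf4, Bach2, Bcl6 and Irf8) and 0 lower, beside 38.4% of all genes called higher and 12.6% called lower. In CLL cells against wild-type cells 1 of 8 was higher (Prdm1) and 2 lower (Bach2 and Irf8), beside 2.94% and 0.604% of all genes. In CLL cells against non-CLL B cells, largely of the same mice, 0 were higher and 2 lower (again Bach2 and Irf8), beside 0.744% and 5.02%. With TMM rescaling that split turned to 2 higher (Irf4 and Prdm1) and 0 lower. In non-CLL B cells against wild-type cells 0 of 8 were called, with 1 at an unadjusted p under 0.05, beside 55.8% of all genes called higher and 1.48% lower. The 3 aged comparisons share libraries in pairs, so their values are given side by side and are not independent. The median log2 change of all genes tested was 0.18 in the young comparison, 0.93 for CLL against wild-type, -0.77 for CLL against non-CLL and 1.65 for non-CLL against wild-type. The same medians of the 8 genes were 0.27, -0.51, -0.88 and 0.38. With at least 20 TPM required, the medians of all genes were 0.22, -0.04, -0.06 and 0.02. For non-CLL against wild-type cells 83 of 7220 genes were then called.

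**Figure D1:**
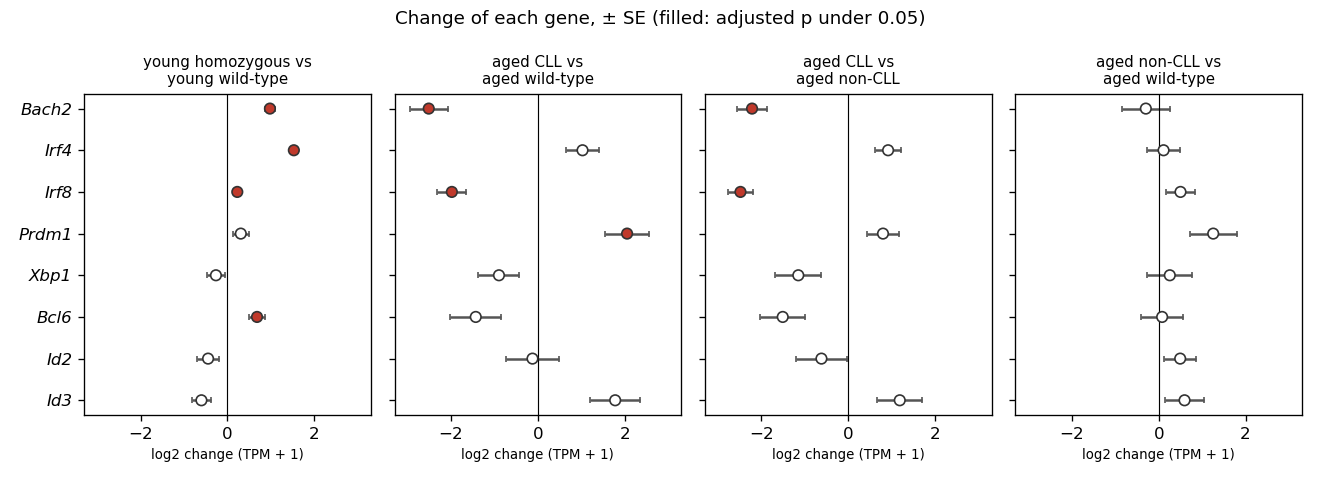
Log2 change of TPM + 1 for each of the 8 genes (rows) in the 4 comparisons (panels), with the standard error as a bar and filled circles for an adjusted p under 0.05. Bach2 and Irf8 lie right of 0 in the young panel and left of 0 in both panels of CLL cells.

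Irf4 stood at 212, 214 and 205 TPM in young homozygous cells, against 67.7, 66.3 and 83.6 TPM in young wild-type cells. The groups did not overlap, and Irf4 was the most changed of the 8 genes in young cells, at 2.89-fold (log2 1.53, SE 0.10, adjusted p = 2.93e-05). It was called under each of the 17 alternatives run, with log2 changes between 1.32 and 1.63. Among these, background subtraction could change nothing in young cells, since the median subtracted was 0. In aged cells Irf4 was at 168, 90.0, 96.3, 58.3 and 120 TPM in CLL libraries 1, 2, 4, 5 and 6, at 54.9, 56.9, 45.3 and 54.4 TPM in non-CLL libraries 2, 4, 5 and 6, and at 64.2, 22.9 and 77.7 TPM in libraries 1, 2 and 3 of wild-type cells. Every CLL library was above every non-CLL library, whereas CLL library 5 was below wild-type libraries 1 and 3. Neither difference was called: log2 0.92 against non-CLL (SE 0.29, adjusted p = 0.0528) and 1.03 against wild-type (SE 0.37, adjusted p = 0.0555). The difference from non-CLL cells was called in 5 of 20 alternatives, with 1.82 under TMM rescaling (adjusted p = 0.0435). That from wild-type cells was called in 4 of 19, the value against wild-type falling to 0.50 without wild-type library 2 (adjusted p = 0.271). Non-CLL and wild-type cells had means of 52.9 ± 5.17 and 54.9 ± 28.6 TPM (SD, n = 4 and 3), which lie within their spread (log2 0.11, adjusted p = 0.827).

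**Figure D2:**
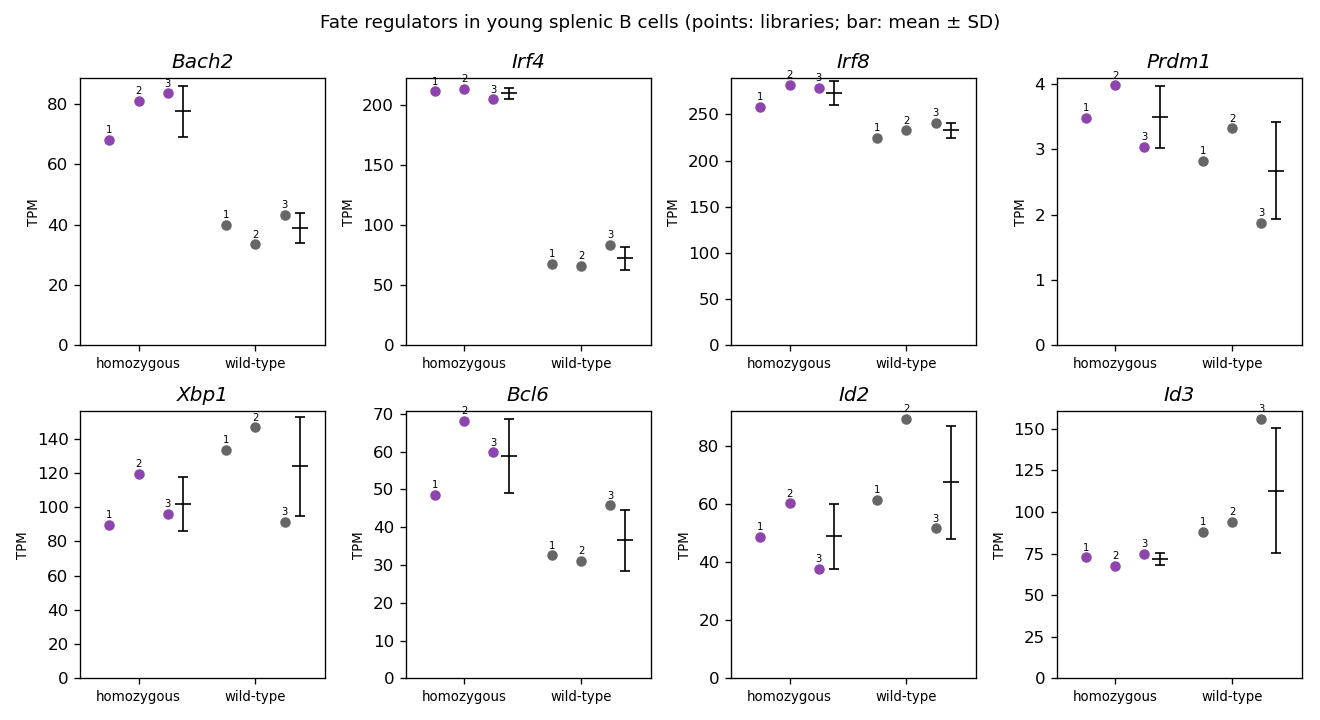
TPM of each of the 8 genes in young splenic B cells, with homozygous libraries left of wild-type libraries, 1 numbered point per library and the mean ± SD beside them (n = 3 each). Irf4, Bach2, Bcl6 and Irf8 are higher in all homozygous libraries than in any wild-type library, and Id3 is lower.

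Irf8 differed little in young cells and strongly in CLL cells. It was at 258, 282 and 278 TPM in young homozygous and 225, 233 and 241 TPM in young wild-type libraries, without overlap (log2 0.23, SE 0.08, adjusted p = 0.033). This change is close to the median of all genes in that comparison and was 0.02 after TMM rescaling (adjusted p = 0.806). It was also not called after quantile normalization (0.09, adjusted p = 0.268) or in limma without the variance trend and robust estimation (adjusted p = 0.0503). The same held without homozygous library 2 or 3 or wild-type library 1 or 2 (adjusted p between 0.0799 and 0.121). Against wild-type library 3 alone, which carried Ddx3y, the change was 0.18, a value that rests on a single library.

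In aged cells Irf8 was at 101, 112, 161, 113 and 61.7 TPM in CLL libraries, 609, 476, 531 and 798 TPM in non-CLL libraries, and 330, 765 and 288 TPM in wild-type libraries, in the order of library numbers given for Irf4. The highest CLL library lay below the lowest library of either other group. Irf8 fell in CLL cells by 2.48 on the log2 scale against non-CLL cells (SE 0.28, adjusted p = 3.08e-06) and by 1.98 against wild-type cells (SE 0.34, adjusted p = 0.000187). Non-CLL and wild-type means, 604 ± 141 and 461 ± 264 TPM, lie within their spread (log2 0.50, adjusted p = 0.233), although the difference was called without wild-type library 2 (0.94, adjusted p = 0.011) and its sign turned with TMM rescaling (-0.66).

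Plasmacytoid dendritic cells express much Irf8. Siglech, which marks them, was at 1.32, 14.6, 1.61, 3.39 and 18.1 TPM in CLL libraries, 298, 288, 137 and 784 TPM in non-CLL libraries, and 0, 126 and 1.89 TPM in wild-type libraries. Of the 8 markers 7 were lower in CLL than in non-CLL cells and 7 higher in non-CLL than in wild-type cells, while 0 were called in CLL against wild-type cells. Siglech was at or near 0 in wild-type libraries 1 and 3. Without wild-type library 2 the Irf8 change in CLL cells against wild-type was -1.54 (SE 0.36, adjusted p = 0.00122). The part of dendritic cells in the Irf8 values was not tested. In such bulk libraries fewer cells of a type and less RNA per cell cannot be told apart.

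**Figure D3:**
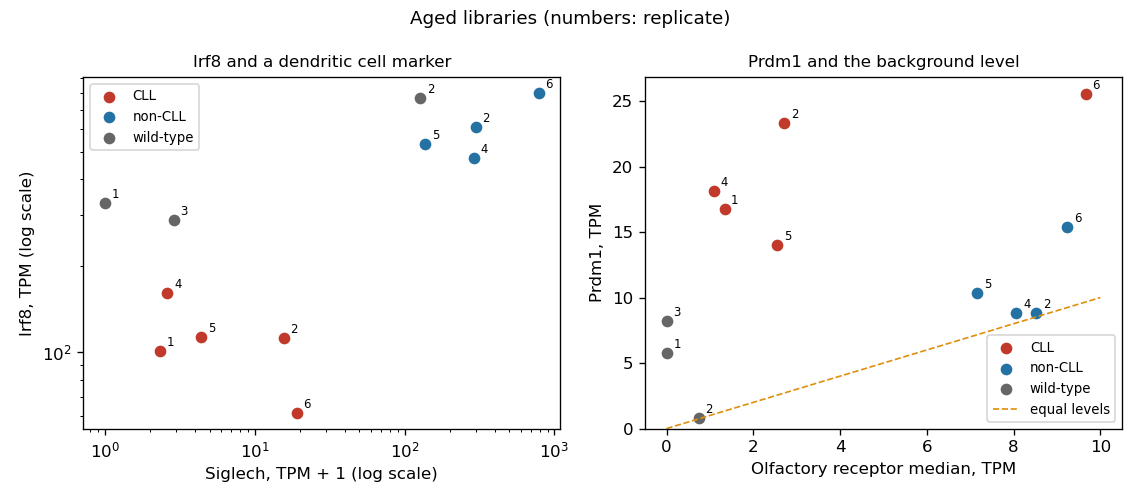
Left, Irf8 TPM against Siglech TPM + 1 (both log scales) and right, Prdm1 TPM against the library's olfactory receptor median, 1 numbered point per aged library, with CLL, non-CLL and wild-type cells in different colours and a dashed line of equal levels. CLL libraries lie lowest for Irf8. Their Siglech is at most 18.1 TPM, against 137 TPM or more in non-CLL libraries, so these groups share no Siglech level. Prdm1 of non-CLL libraries 2 and 4 lies at the background level.

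Bach2, the repressor of the plasma cell programme, moved in opposite directions in young homozygous and in CLL cells. Its levels were 68.1, 81.1 and 83.6 TPM in young homozygous and 40.1, 33.5 and 43.3 TPM in young wild-type libraries, with no overlap (1.97-fold, log2 0.98, SE 0.12, adjusted p = 0.000433). It was called in all 17 alternatives, with log2 changes between 0.75 and 1.07, where background subtraction again changed nothing. Bach2 was at 14.7, 14.3, 15.9, 9.51 and 29.2 TPM in CLL libraries, 69.5, 118, 97.6 and 42.3 TPM in non-CLL libraries, and 173, 36.0 and 133 TPM in wild-type libraries. No CLL library reached the lowest library of another group, and library 6, the homozygous mouse, was the highest CLL and the lowest non-CLL library. Bach2 fell in CLL cells both against wild-type cells (log2 -2.51, SE 0.43, adjusted p = 0.000674) and against non-CLL cells (log2 -2.22, SE 0.35, adjusted p = 0.000375). Without wild-type library 2 the change against wild-type cells was -3.19 (adjusted p = 8.11e-11), and without CLL library 6 it was -2.73 (adjusted p = 0.0222). Non-CLL and wild-type means of 82.0 ± 33.2 and 114 ± 70.4 TPM were not distinguished (log2 -0.30, adjusted p = 0.68).

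The calls of Bach2 and Irf8 depend on the scaling and the variance model. Against wild-type cells both ended with quantile normalization (adjusted p = 0.0509 for Bach2 and 0.0551 for Irf8). Both also ended in limma without the variance trend and robust estimation (0.0513 for each). Against non-CLL cells both ended with TMM rescaling only (Bach2 -1.33, adjusted p = 0.0808, and Irf8 -1.57, adjusted p = 0.087). No alternative turned the direction of either gene in the CLL comparisons.

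Prdm1, the target of BACH2 and BCL6, was at 16.8, 23.3, 18.1, 14.0 and 25.5 TPM in CLL libraries, 8.84, 8.81, 10.3 and 15.4 TPM in non-CLL libraries, and 5.76, 0.824 and 8.21 TPM in wild-type libraries. All CLL libraries were above all wild-type libraries, and above the 90th percentile of olfactory receptor genes in their own library. Prdm1 rose in CLL cells by 2.06 on the log2 scale against wild-type cells (SE 0.51, adjusted p = 0.0166). Wild-type library 2 carries much of that value: without it the change was 1.35 (adjusted p = 0.0494). The call also ended after background subtraction (2.05, adjusted p = 0.142), quantile normalization (1.69, adjusted p = 0.165) and in limma without the variance trend and robust estimation (adjusted p = 0.0513).

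Against non-CLL cells Prdm1 was not called (log2 0.80, adjusted p = 0.115). No non-CLL library exceeded its own 90th percentile of olfactory receptor genes (12.6 to 21.8 TPM), so Prdm1 could not be separated from the background there. After subtraction of the background median the change was 2.55 and called (adjusted p = 0.0282), as it was with TMM rescaling (1.65), quantile normalization (1.62) and library weights (0.91). All 4 non-CLL libraries were above the 3 wild-type libraries (log2 1.26, adjusted p = 0.0706), but the sign turned after background subtraction (-0.50) and quantile normalization (-0.61). In young cells Prdm1 was low, at 3.49, 3.98 and 3.04 TPM in homozygous and 2.83, 3.32 and 1.87 TPM in wild-type libraries, with overlap and no call (log2 0.31, adjusted p = 0.189).

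**Figure D4:**
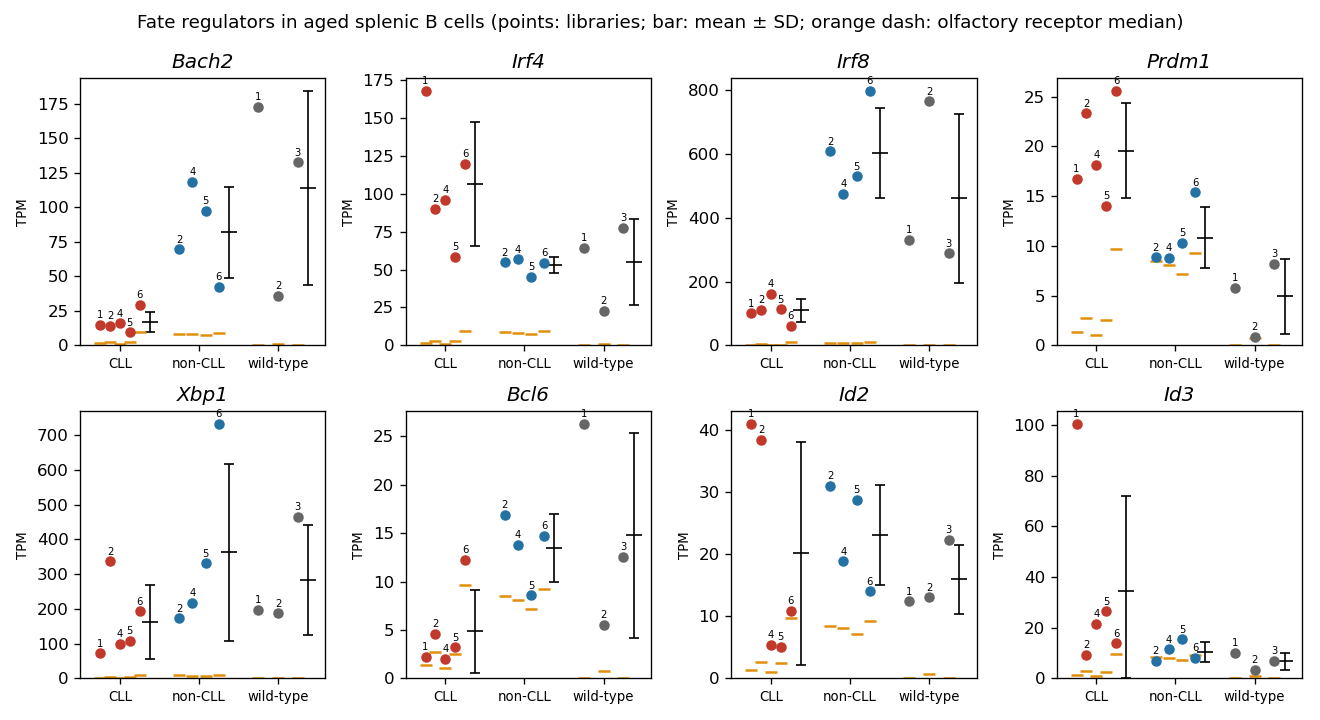
TPM of each of the 8 genes in aged splenic B cells, with CLL, non-CLL and wild-type libraries from left to right, numbered points per library, mean ± SD beside each group (n = 5, 4 and 3, lower bars cut at 0) and an orange dash at each library's olfactory receptor median. Bach2 and Irf8 are lowest in CLL libraries, and Bcl6 and Id3 lie near the orange dashes in many libraries.

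Because TPM is scaled by gene length, levels of different genes can be set beside each other. Bach2 exceeded Prdm1 in 1 of 5 CLL libraries, and in all 4 non-CLL, 3 aged wild-type, 3 young homozygous and 3 young wild-type libraries. The ratio of the Bach2 to the Prdm1 level was 0.612 to 1.14 in CLL, 2.75 to 13.4 in non-CLL and 16.2 to 43.7 in aged wild-type libraries, and 19.5 to 27.5 in young homozygous and 10.1 to 23.1 in young wild-type libraries. Its denominator was at the background in the 4 non-CLL libraries and in aged wild-type library 2, which gave the ratio of 43.7, so these ratios are imprecise. The ratio of the Irf4 to the Irf8 level was 0.514 to 1.94 in CLL, 0.0682 to 0.119 in non-CLL and 0.0299 to 0.269 in aged wild-type libraries. It was 0.736 to 0.820 in young homozygous and 0.285 to 0.346 in young wild-type libraries. Neither ratio of the CLL libraries overlapped those of the other aged libraries, and the Irf4 to Irf8 ratio did not overlap between the young groups, as a description of genes chosen with these values known.

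CLL and non-CLL cells of mice 2, 4, 5 and 6 can be set side by side within an animal. This pairing rests on the library numbers and the series' design text. For mouse 4 the Xist level differed between the CLL and the non-CLL library, as given above, so that pair is less certain. Bach2, Irf8 and Bcl6 were lower in CLL cells in 4 of 4 mice, and Irf4, Prdm1 and Id3 higher in 4 of 4. The share of all genes with such a count was not computed. Their median log2 change with the mouse as a replicate block was -0.66. Bcl6 exceeded the 90th percentile of olfactory receptor genes in 0 of 5 CLL libraries. In non-CLL libraries Prdm1 did so in 0 of 4 and Id3 in 1 of 4. The background median was lower in CLL than in non-CLL libraries of mice 2, 4 and 5 (2.71, 1.08 and 2.55 against 8.52, 8.06 and 7.16 TPM). In mouse 6 it was 9.66 TPM in CLL and 9.24 TPM in non-CLL cells. The part of the background in the counts of Bcl6, Prdm1 and Id3 was not tested. Xbp1 and Id2 were lower in 3 of 4, with mouse 2 the other way. In heterozygous mice 2, 4 and 5 Bach2 in CLL cells was at 0.205, 0.134 and 0.0975 times its level in non-CLL cells, whereas in homozygous mouse 6 it was at 0.689 times. Mouse 6 had in turn the lowest Irf8 ratio, 0.0773, against 0.184, 0.339 and 0.214 in mice 2, 4 and 5, and the highest Siglech among non-CLL libraries. With 1 homozygous animal, the genotype and the animal cannot be told apart. With the mouse as a replicate block, the same calls held for Bach2 (log2 -2.19, adjusted p = 0.0231) and Irf8 (-2.47, adjusted p = 0.00168).

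**Figure D5:**
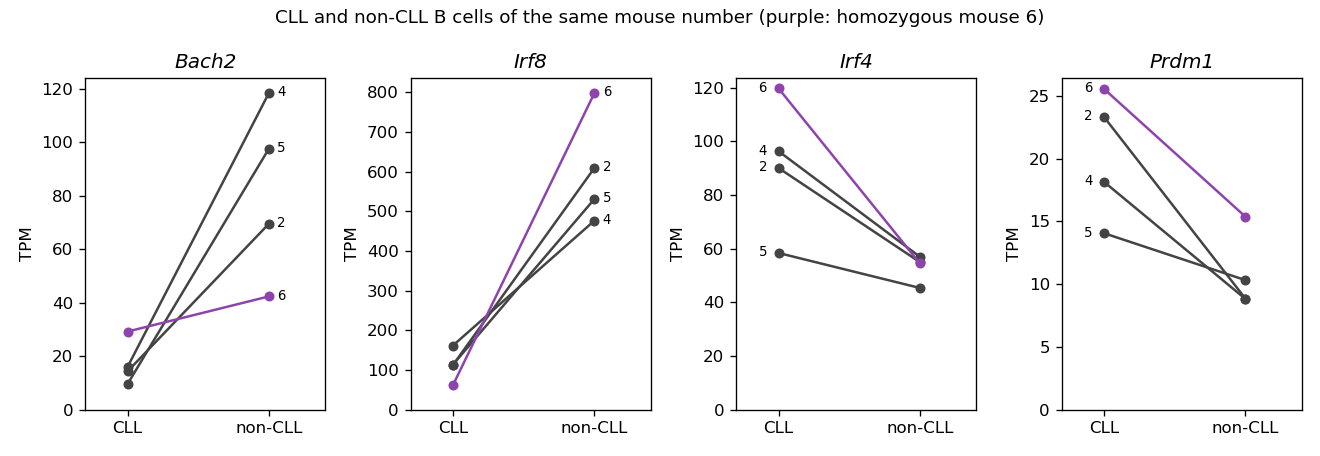
TPM of Bach2, Irf8, Irf4 and Prdm1 in CLL cells (left) and non-CLL B cells (right) of mice 2, 4, 5 and 6, with a line joining the libraries of a mouse and purple for homozygous mouse 6. The CLL point lies below the non-CLL point of the same mouse for Bach2 and Irf8, and above it for Irf4 and Prdm1.

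Xbp1, the factor of the secretory programme, was not called in any comparison. It was at 71.9, 337, 100.2, 108 and 193 TPM in CLL libraries, 173, 217, 332 and 732 TPM in non-CLL libraries, and 198, 188 and 465 TPM in wild-type libraries. The aged groups overlapped widely (log2 -0.90, adjusted p = 0.152 against wild-type, and -1.15, adjusted p = 0.136 against non-CLL). CLL library 2 and wild-type library 3, with the highest Xbp1 of their groups, also had the highest summed level of 5 plasma cell genes, 4820 and 5654 TPM. In non-CLL cells Xbp1 was highest in library 6 but the plasma cell sum in library 5 (816 and 1063 TPM in libraries 6 and 5). Without CLL library 2 Xbp1 was called lower against wild-type (-1.21, adjusted p = 0.0237), and likewise without wild-type library 2 (-1.13, adjusted p = 0.0279) and with TMM rescaling (-1.36, adjusted p = 0.034). The part of plasma cells in these values was not tested. In young cells Xbp1 was at 89.6, 120 and 96.0 TPM in homozygous and 134, 147 and 91.5 TPM in wild-type libraries (log2 -0.26, adjusted p = 0.299), and it was called lower without wild-type library 3 (-0.47, adjusted p = 0.0146).

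Genes that act with or below XBP1 changed in part. Of 23 genes of the unfolded protein response 10 were higher and 3 lower in young homozygous cells, beside 38.4% and 12.6% of all genes, with a list median of 0.21 against 0.18 for all genes. With TMM rescaling 5 were higher and 4 lower. Dnajb9, a chaperone of the endoplasmic reticulum, was at 175 ± 8.52 TPM in homozygous cells, against 36.4 ± 0.930 TPM in wild-type cells (log2 2.24, adjusted p = 9.33e-07), and Hspa5, which encodes BiP, at 827 ± 99.2 and 389 ± 5.24 TPM (log2 1.08, adjusted p = 0.000165). The stress factors Ddit3 (0.90) and Atf4 (0.79) rose as well. In CLL cells 2 of 23 were higher than in wild-type cells, beside 2.94% of all genes. They were Atf4 (1.49, adjusted p = 0.00572) and the disulphide isomerase Pdia4 (1.39, adjusted p = 0.00328). The count was 1 higher and 2 lower with TMM rescaling, and 1 higher after background subtraction. Against non-CLL cells Pdia4 rose (1.89, adjusted p = 0.000135) and Dnajb9 fell (-1.06, adjusted p = 0.0432), beside 0.744% and 5.02% of all genes. With TMM rescaling, at 20 TPM or after background subtraction 1 of the list was higher and 0 lower. In non-CLL against wild-type cells 4 were higher and 0 lower (Dnajb9, Atf4, Ern1 and Ddit3), beside 55.8% and 1.48% of all genes. That count was 14 lower and 0 higher with TMM rescaling. It was 1 higher with at least 20 TPM required, and 0 were called after background subtraction.

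Of the plasma cell markers 5 of 14 tested were higher and 1 lower in young homozygous cells (3 and 2 with TMM rescaling), a share close to the 38.4% of all genes called higher. The higher ones included the transcription factor Zbtb20 (log2 1.10), Glcci1 (0.87) and the coactivator Pou2af1 (0.57), while Fkbp11, a secretory isomerase, fell by 0.78. In CLL cells 2 of 15 were higher and 0 lower against either group. All genes had 2.94% and 0.604% against wild-type cells, and 0.744% and 5.02% against non-CLL cells. Against wild-type cells the count was 2 higher and 1 lower with TMM rescaling, and 0 after background subtraction. Against non-CLL cells 1 was higher at 20 TPM or after background subtraction. Mzb1, a chaperone of B cell and plasma cell secretion, was at 613 ± 197 TPM in CLL, 227 ± 69.4 TPM in non-CLL and 222 ± 109 TPM in aged wild-type cells (log2 1.42, adjusted p = 0.00462 against non-CLL and 1.51, adjusted p = 0.00308 against wild-type). Derl3, of the degradation path of the endoplasmic reticulum, was at 39.1 ± 13.6, 16.8 ± 8.35 and 12.5 ± 3.73 TPM (log2 1.24, adjusted p = 0.0459 against non-CLL and 1.54, adjusted p = 0.0231 against wild-type). Its CLL libraries, from 22.4 TPM up, overlapped with the non-CLL libraries, which reached 26.7 TPM. Sdc1, the plasma cell surface marker CD138, ranged from 1.20 to 27.2 TPM in CLL, 10.7 to 49.2 TPM in non-CLL and 4.46 to 27.4 TPM in aged wild-type libraries, with wide overlap. In non-CLL cells 2 of 15 were higher than in wild-type cells, Cd28 (log2 2.62) and Tnfrsf17 (2.25), beside 55.8% of all genes. The count was 1 higher and 5 lower with TMM rescaling and 0 after background subtraction, and Tnfrsf17 was at 6.25 to 12.1 TPM in non-CLL libraries, a level that their olfactory receptor genes reach too.

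Bcl6, the central repressor of the germinal centre, was at 48.5, 68.1 and 59.8 TPM in young homozygous and 32.5, 31.1 and 45.8 TPM in young wild-type libraries. The groups did not overlap (log2 0.68, SE 0.18, adjusted p = 0.0164). The call ended without wild-type library 1 (adjusted p = 0.0531), wild-type library 2 (0.0517) or homozygous library 3 (0.0592), and with quantile normalization (0.0563). Against wild-type library 3 alone the change was 0.34.

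In aged cells Bcl6 was low, at 2.22, 4.63, 1.98, 3.21 and 12.2 TPM in CLL, 16.9, 13.8, 8.59 and 14.7 TPM in non-CLL, and 26.3, 5.50 and 12.5 TPM in wild-type libraries. It exceeded the 90th percentile of olfactory receptor genes in 0 of 5 CLL, 2 of 4 non-CLL and 3 of 3 wild-type libraries, so its level in CLL cells could not be separated from the background. CLL library 6, with the highest Bcl6 of the CLL libraries, had the highest background. The differences of CLL cells were not called (log2 -1.43, adjusted p = 0.0661 against wild-type, and -1.51, adjusted p = 0.0581 against non-CLL), but without CLL library 6 both were (-1.78, adjusted p = 0.0332, and -1.86, adjusted p = 0.00181).

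Of 16 genes of the germinal centre programme 1 was higher and 2 lower in young homozygous cells, beside 38.4% and 12.6% of all genes. The list median was -0.18. Neil1, a DNA repair glycosylase, was at 137 ± 11.9 TPM in homozygous cells, against 48.2 ± 8.13 TPM in wild-type cells (log2 1.50, adjusted p = 0.000149). Efnb1 and the death receptor gene Fas fell by 0.47 and 0.39. In CLL cells Fas was the most changed of the list, at 8.15 ± 5.59 TPM, against 85.0 ± 34.9 TPM in non-CLL and 68.1 ± 70.0 TPM in wild-type cells (log2 -3.32, adjusted p = 1.83e-05, and -2.52, adjusted p = 0.0479). Nuggc was also lower than in non-CLL cells (-2.33, adjusted p = 0.0236). It was at 0.556 to 10.7 TPM in CLL and 10.9 to 30.8 TPM in non-CLL libraries. The 90th percentile of olfactory receptor genes was 2.39 to 15.7 TPM and 12.6 to 21.8 TPM there. Against non-CLL cells 2 of 16 were thus lower, beside 5.02% of all genes. With TMM rescaling, at 20 TPM or after background subtraction 1 was lower. The 3 genes called higher in non-CLL than in wild-type cells were Mybl1, Efnb1 and Ung, beside 55.8% of all genes called higher. With at least 20 TPM required 0 of the 7 then tested were called, and 0 after background subtraction. In non-CLL libraries Efnb1 was at 1.56 to 5.19 TPM, below their olfactory receptor medians (7.16 to 9.24 TPM). Mybl1 was there at 13.9 to 15.8 TPM, and the 90th percentile of olfactory receptor genes at 12.6 to 21.8 TPM.

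Id2 and Id3, the inhibitors of E proteins, were not called in any comparison. Id3 was at 72.7, 67.7 and 74.9 TPM in young homozygous and 88.2, 94.2 and 156 TPM in young wild-type libraries, without overlap (log2 -0.60, SE 0.22, adjusted p = 0.0601). It was called lower with TMM rescaling (-0.80, adjusted p = 0.0191). Against wild-type library 3 alone, which held the most Id3, the change was -1.11. In aged cells it was at 100.4, 9.31, 21.6, 26.4 and 13.9 TPM in CLL, 6.81, 11.5, 15.4 and 8.02 TPM in non-CLL, and 10.1, 3.39 and 6.81 TPM in wild-type libraries. CLL library 1 stood far above the rest. The difference between CLL and wild-type cells just missed the threshold (log2 1.78, SE 0.58, adjusted p = 0.0546), was called without CLL library 1 (1.27, adjusted p = 0.0487), and was not called after background subtraction (1.43, adjusted p = 0.375).

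Id2 was at 48.7, 60.2 and 37.6 TPM in young homozygous and 61.5, 89.2 and 51.6 TPM in young wild-type libraries, with overlap (log2 -0.45, adjusted p = 0.192). In aged cells it was at 41.0, 38.5, 5.45, 5.11 and 10.9 TPM in CLL, 31.0, 18.9, 28.8 and 14.0 TPM in non-CLL, and 12.4, 13.1 and 22.4 TPM in wild-type libraries. The CLL libraries fell on both sides of the other groups, with libraries 1 and 2 highest and 4 and 5 lowest (log2 -0.12, adjusted p = 0.896 against wild-type, and -0.62, adjusted p = 0.44 against non-CLL). NK cells, which express Id2, had markers summing to 13.7 to 80.6 TPM in CLL, 172 to 804 TPM in non-CLL and 7.44 to 40.7 TPM in wild-type libraries, and their part in the Id2 values was not tested.

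Of the partners and paralogs of these factors 10 of 23 tested were higher and 4 lower in young homozygous cells, beside 38.4% and 12.6% of all genes. Mafk, Mafg and Maff, small Maf proteins that pair with BACH2 on DNA, had log2 changes of 0.96, 0.81 and 1.25 (adjusted p = 0.000139 for Mafk, 0.000689 for Mafg and 0.00143 for Maff), while Zbtb32, a repressor related to BCL6, fell by 1.07 (adjusted p = 0.00145). In CLL cells 0 of 24 were called against wild-type cells by limma, with 5 at an unadjusted p under 0.05. Against non-CLL cells 1 was lower, Irf7 (log2 -1.62, adjusted p = 0.0131), a factor that plasmacytoid dendritic cells hold at high levels. That count stands beside 5.02% of all genes, and 0 were called with TMM rescaling or after background subtraction. The E protein gene Tcf4 was higher in non-CLL than in wild-type cells (1.31, adjusted p = 0.0497), as were Irf7 (1.26), Id1 (1.82) and Id4 (3.17). These 4 of 24 stand beside 55.8% of all genes called higher. With TMM rescaling 1 of the 24 was higher and 9 lower, and after background subtraction 0 were called. Id1 averaged 4.56 ± 1.86 TPM in non-CLL cells, below the olfactory receptor median of each of those libraries. Id4 was at 9.21 to 19.1 TPM there, and the 90th percentile of olfactory receptor genes at 12.6 to 21.8 TPM. In that comparison the 8 dendritic cell markers and the background rose too, and their part was not tested.

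The last list holds B cell identity genes that are held down in plasma cells, together with genes such as Myc that are not particular to B cells. In young homozygous cells 9 of 18 were higher and 2 lower (6 and 3 with TMM rescaling), beside 38.4% and 12.6% of all genes. Among the higher ones were Myc at 221 ± 21.6 TPM in homozygous cells, against 67.8 ± 5.83 TPM in wild-type cells (log2 1.69), Foxo1 (0.82), Pax5 (0.79) and Fcer2a (0.75). In CLL cells 1 was higher and 1 lower than in wild-type cells, beside 2.94% and 0.604% of all genes. They were Myc (1.46, adjusted p = 0.0309) and, lower, the inhibitory receptor Cd22 (-1.13, adjusted p = 0.0291). That count was 0 higher and 2 lower with TMM rescaling, and 0 were called at 20 TPM or after background subtraction. The list medians were -0.07 for CLL and -0.27 for non-CLL cells against wild-type cells, where all genes had 0.93 and 1.65. With at least 20 TPM required, which all 18 passed, the medians of all genes were -0.04 and 0.02. Against non-CLL cells Myc (1.86), the kinase Blk (1.00) and Ms4a1, which encodes CD20 (0.90), were higher and Cd22 (-0.98) lower. These 3 and 1 stand beside 0.744% and 5.02% of all genes. With TMM rescaling 2 were higher and 0 lower. At 20 TPM or after background subtraction 1 was higher and 0 lower. In non-CLL against wild-type cells 0 of 18 were called by limma and 0 had an unadjusted p under 0.05, whereas with TMM rescaling 15 were lower.

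Genes with a like pattern across libraries were listed for description. Over the 12 aged libraries and genes with a mean of at least 20 TPM, Cpm, Dock11 and Ankrd11 followed Bach2 most closely (Pearson r between 0.935 and 0.949 on log2(TPM + 1)). Syngr2, Hsd11b1 and Ncoa1 followed Irf8 (0.892 to 0.923), and 5031439G07Rik, Arnt and Mcoln2 followed Prdm1 (0.897 to 0.938). Over the 6 young libraries the closest were Ppfia1, Hcfc1 and Ep400 for Bach2, Snord100, R3hdm2 and Spty2d1 for Irf4, Susd6, Snrk and Matr3 for Irf8, and Vipas39, Copa and Dcaf12 for Bcl6, all at 0.997 or more. The points share their groups and the background of each library.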

How the data were processed

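RNA-seq values of 18 splenic B cell libraries were read from 2 deposited tables of TPM, computed by the authors; the labels name the unit for the aged set, and each young library sums to the total that TPM must have. Per the submitters' processing notes, MACS2 2.2.0, Bowtie2 2.3.4.1, STAR 2.4.0.1 and mm10 were used, with no statement of which tool served which assay. The sources used here do not give the quantification tool, the annotation or the strandedness, so reads of a gene and an overlapping antisense gene cannot be told apart. TPM keeps no depth, so no counting interval is given. Left out were 25 aged and 26 young entries whose names had become dates, and 887 young entries with no name (4.44% to 9.36% of TPM). The 12 chromatin samples were not analysed here; for 3 of them title and genotype disagree.

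Genes that reached 1 TPM in a number of libraries equal to the size of the smaller group were tested on log2(TPM + 1) within each table, in the libraries of 1 pair of groups, with limma 3.58.1 in R 4.3.3 (two-sided, variance trend, robust estimation, Benjamini-Hochberg over all genes tested). The procedure was tested on simulated data. Each list is described by counts and medians, with no set test. The members and lists were chosen with earlier results of these data known. Named are the 8 genes, from each list the called genes with the 4 largest changes per comparison, the 3 most correlated genes per called member, and the markers used as checks; fewer are printed where the list has fewer calls. In the aged table Mzb1, Nuggc and Jchain are listed under older names. Coordinates and promoter windows are from RefSeq, GRCm38.p6, the assembly of mm10.

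CLL and non-CLL libraries 2, 4, 5 and 6 pair by animal, since the series' design text says the non-CLL cells are from the same mice; their deviations correlated at -0.03, 0.03, 0.08 and 0.13. Alternatives were other pseudocounts (0.25 and 5 TPM), minimum levels, TMM rescaling, quantile normalization, subtraction of the olfactory receptor median and library weights. Others were limma without the variance trend and robust estimation, a replicate block, 1 fit over the aged groups, and leaving out each library.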

Additional observations from a re-analysis of the deposited data

Results flagged for a closer look

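Bcl6 in CLL library 6 was at 12.2 TPM, far above the other 4 CLL libraries (1.98 to 4.63 TPM), and Id3 in CLL library 1 at 100.4 TPM, with the others between 9.31 and 26.4 TPM. Each gap, taken on TPM without a log scale, is larger than Dixon's limit for a group of its size. Chance flags about 1 in 20 groups if values are normally distributed, which was not tested for TPM. The limit was not applied on the log2 scale of the other tests, so both flags may depend on the scale. In all, 16 groups of these genes were examined. Library 6 also had the highest olfactory receptor median of the CLL libraries (9.66 TPM), and its part in the Bcl6 value was not tested.

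Bach2 changed by log2 0.98 in young homozygous against young wild-type cells and by -2.51 in aged CLL against aged wild-type cells. Irf8 changed by 0.23 and -1.98 in the same comparisons. For both genes all 3 young homozygous libraries lay above the young wild-type libraries, and all 5 CLL libraries below the aged wild-type libraries. In non-CLL libraries, also of mutant mice, the changes against wild-type were -0.30 for Bach2 and 0.50 for Irf8, neither called. The difference between these changes was not tested, since the tables were made separately. Age, the sort for CD5 and the heterozygous genotype of 4 of the 5 CLL libraries differ as well and cannot be told apart from the disease.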

How the results depend on the processing

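Of 575 values of single genes under an alternative, 475 kept their direction and their side of the threshold, 46 gained a call, 25 lost one and 29 turned their sign. Those kept include background subtraction in the young comparison, which subtracted a median of 0 and so could change no value. The limits are the shifted scale of the aged libraries, the background and the small groups. TMM rescaling moved the median change of all genes to -0.01 in the young comparison, 0.63 for CLL against wild-type, -0.09 for CLL against non-CLL and 0.92 for non-CLL against wild-type. The cause of the changes below was not tested.

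Members called were 4 in the young comparison, and 2 to 6 with 1 library left out (2 without wild-type library 2 or homozygous library 3). For CLL against wild-type the count was 3, and it was 5 with a pseudocount of 0.25 TPM, TMM, library weights or 1 fit over the aged groups. It was 0 with quantile normalization or without the variance trend and robust estimation, and 4 to 6 with 1 library left out (6 without wild-type library 2). For CLL against non-CLL it was 2, with 5 under library weights and 2 to 4 with 1 library left out (4 without CLL library 6). For non-CLL against wild-type it was 0, with 2 under TMM, 1 under library weights or 1 fit, and 0 to 1 with 1 library left out. Calls over the gene lists were 7 for CLL against wild-type (4 at 20 TPM, 16 with TMM, 2 after background subtraction), 11 against non-CLL (5, 6 and 4) and 13 for non-CLL against wild-type (1, 47 and 0).

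With the replicate block, CLL and wild-type libraries shared only numbers 1 and 2 (correlations 0.04 and -0.01), and 0 members were called; Id2 turned to 1.57. In the young set same-numbered libraries correlated at -0.10, 0.24 and 0.32, and the labels name no pairing beyond the number. CLL and non-CLL libraries of the same mouse correlated at -0.03, 0.03, 0.08 and 0.13, so such correlations cannot tell whether libraries are paired. In the young set the replicate block called Id3 (adjusted p = 0.0242) and Id2 (0.00282) as well. Against non-CLL cells the replicate block changed no other call. No paired analysis was possible for non-CLL against wild-type because they share only number 2.

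Signs turned in these cases, with the range over libraries left out in brackets. Young Xbp1 was 0.14 without wild-type libraries 1 and 2, a fit that leaves 1 wild-type library, assumed to vary like the homozygous ones. Id2 in CLL against wild-type was 0.18, 0.20 and 0.13 without CLL library 4, CLL library 5 or wild-type library 3 (-0.49 to 0.20), and 0.24 against non-CLL with TMM. For non-CLL against wild-type, TMM gave Irf4 -1.02 (called), Irf8 -0.66, Xbp1 -0.90, Bcl6 -0.98, Id2 -0.61 and Id3 -0.42. Quantile normalization gave Prdm1 -0.61, Bcl6 -1.10, Id2 -0.25 and Id3 -0.99, background subtraction Irf4 -0.11, Prdm1 -0.50, Bcl6 -1.19, Id2 -0.22 and Id3 -1.43, and library weights Irf4 -0.35, Xbp1 -0.48 and Bcl6 -0.21. Bcl6 was -0.03 and -0.44 without non-CLL library 2 or wild-type library 2 (-0.44 to 0.59), Xbp1 -0.16 without non-CLL library 6 (-0.16 to 0.68), Bach2 0.14 without wild-type library 1 (-0.98 to 0.14) and Irf4 -0.42 without wild-type library 2 (-0.42 to 0.44).

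Over all genes, calls for CLL against wild-type were 751, but 8429 and 265 with pseudocounts of 0.25 and 5 TPM, 81 with quantile normalization, 2 with the replicate block and 345 to 8222 with 1 library left out. For CLL against non-CLL they were 1287, but 350 with TMM, 11705 with library weights and 325 to 11118 with 1 library left out. For non-CLL against wild-type they were 12681, but 83 at 20 TPM, 39 with quantile normalization and 43 after background subtraction. In the young comparison they were 6237, but 4002 at 20 TPM and 2858 without wild-type libraries 1 and 2. The share of called genes that were higher was 75.3% in the young comparison (51.7% with TMM and 55.1% with quantile normalization), 83.0% for CLL against wild-type (40.7% with quantile normalization), 12.9% against non-CLL (70.0% and 44.9%) and 97.4% for non-CLL against wild-type (69.1% and 38.5%).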
